A study of Homo sapiens with 2 samples.

Results

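The keratin genes analysed here were the protein-coding genes of the RefSeq table for GRCh38 whose symbol is KRT, a number and at most a letter A, B or C. There were 55 of them among the 19866 protein-coding genes kept. On chromosome 12 lay 27, all type II genes except KRT18, and on chromosome 17 lay the other 28, all of type I or, for KRT222, related to it. The cells were of the human line H1299, derived from a non-small cell lung carcinoma. The mark was H3K18la, lactylation of lysine 18 on histone H3, and chromatin pulled down with an antibody to it was sequenced from both ends (ChIP-seq). The other library of the series was input chromatin of the same cells without antibody, for which the series' design text speaks of IgG. The labels give no treatment or genotype for either library. Each group holds 1 library, and only the peak list of the H3K18la library was analysed here. That the list belongs to this library rests on its label, since the peaks are named with the letters NC, which the labels do not explain. There were therefore no replicates, no test between groups and no p-values, and the 95% binomial intervals (exact Clopper-Pearson) cover counting error only.

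Keratins are the intermediate filament proteins of epithelia. A filament is built from pairs of an acidic type I and a basic type II keratin, and which pair a cell makes marks its kind and stage. KRT8 with KRT18, and often KRT7, KRT19 or KRT20, belong to simple (single-layered) epithelia such as those of lung glands and airways. KRT5 with KRT14, and KRT15 and KRT17, mark basal cells of layered epithelia, KRT1 with KRT10 and KRT4 with KRT13 the layers above them, KRT6 with KRT16 wounded skin, and a further set the hair shaft and its sheath. H3K18la is a lactate-derived modification that has been found mostly at active promoters and enhancers.

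The promoters printed here show what lies under and away from the peaks. They are the 250 bases before the start in RefSeq's sequence of GRCh38.p14, written 5′ to 3′. KRT8 is the simple keratin whose listed start lay under a peak, KRT10 a skin keratin with a peak only at its other end, KRT5 the main type II keratin of basal cells and KRT31 a hair keratin, both without a peak. Capitals mark TATAAA and AANCCAAA, motifs described below, and a promoter without capitals has neither.
KRT8 (chr12:52926470-52926719, minus strand): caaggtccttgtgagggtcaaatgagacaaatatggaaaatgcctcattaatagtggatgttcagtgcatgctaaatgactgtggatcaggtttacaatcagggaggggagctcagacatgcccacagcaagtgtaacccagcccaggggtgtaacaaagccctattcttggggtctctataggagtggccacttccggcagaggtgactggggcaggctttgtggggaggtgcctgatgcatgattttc
KRT10 (chr17:40822615-40822864, minus strand): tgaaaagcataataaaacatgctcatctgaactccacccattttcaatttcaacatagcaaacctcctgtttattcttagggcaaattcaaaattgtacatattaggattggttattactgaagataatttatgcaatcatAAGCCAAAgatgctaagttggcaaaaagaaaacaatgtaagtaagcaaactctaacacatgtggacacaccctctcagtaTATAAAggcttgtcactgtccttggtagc
KRT5 (chr12:52520395-52520644, minus strand): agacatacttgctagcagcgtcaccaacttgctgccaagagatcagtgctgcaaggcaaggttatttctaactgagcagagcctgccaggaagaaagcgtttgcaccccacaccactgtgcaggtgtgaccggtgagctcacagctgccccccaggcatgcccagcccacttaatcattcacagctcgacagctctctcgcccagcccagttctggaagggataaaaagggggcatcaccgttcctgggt
KRT31 (chr17:41397609-41397858, minus strand): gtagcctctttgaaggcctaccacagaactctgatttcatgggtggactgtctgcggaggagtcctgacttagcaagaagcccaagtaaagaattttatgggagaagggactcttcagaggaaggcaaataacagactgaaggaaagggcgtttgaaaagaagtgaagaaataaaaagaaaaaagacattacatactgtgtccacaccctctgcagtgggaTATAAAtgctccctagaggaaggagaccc

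H3K18la peaks were found at few keratin genes. A peak was counted at a gene end when it overlapped the 1000 bp either side of it by 1 bp or more, at either end, since the gene table gives no strand. By this rule 8 of 55 keratin genes had a peak (14.5%, 95% interval 6.50 to 26.7), against 59.1% of all protein-coding genes. These 8 were KRT7, KRT8, KRT18, KRT19, KRT15, KRT10, KRT13 and KRT80, and they shared 6 distinct peaks. A peak at an end or anywhere in the gene was listed for 10 keratin genes (18.2%, 9.08 to 30.9), KRT34 and KRT86 being added, against 66.7% of all protein-coding genes. The shares were nearly alike on the chromosomes, 4 of 27 keratin genes on chromosome 12 and 4 of 28 on chromosome 17. Among all protein-coding genes of those chromosomes the shares were 62.6% and 63.6%. No peak in this list is not absence of the mark, since the depth of the libraries is unknown. Fold enrichment, width and significance given for peaks are the values of the authors' deposited list.

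**Figure D1:**
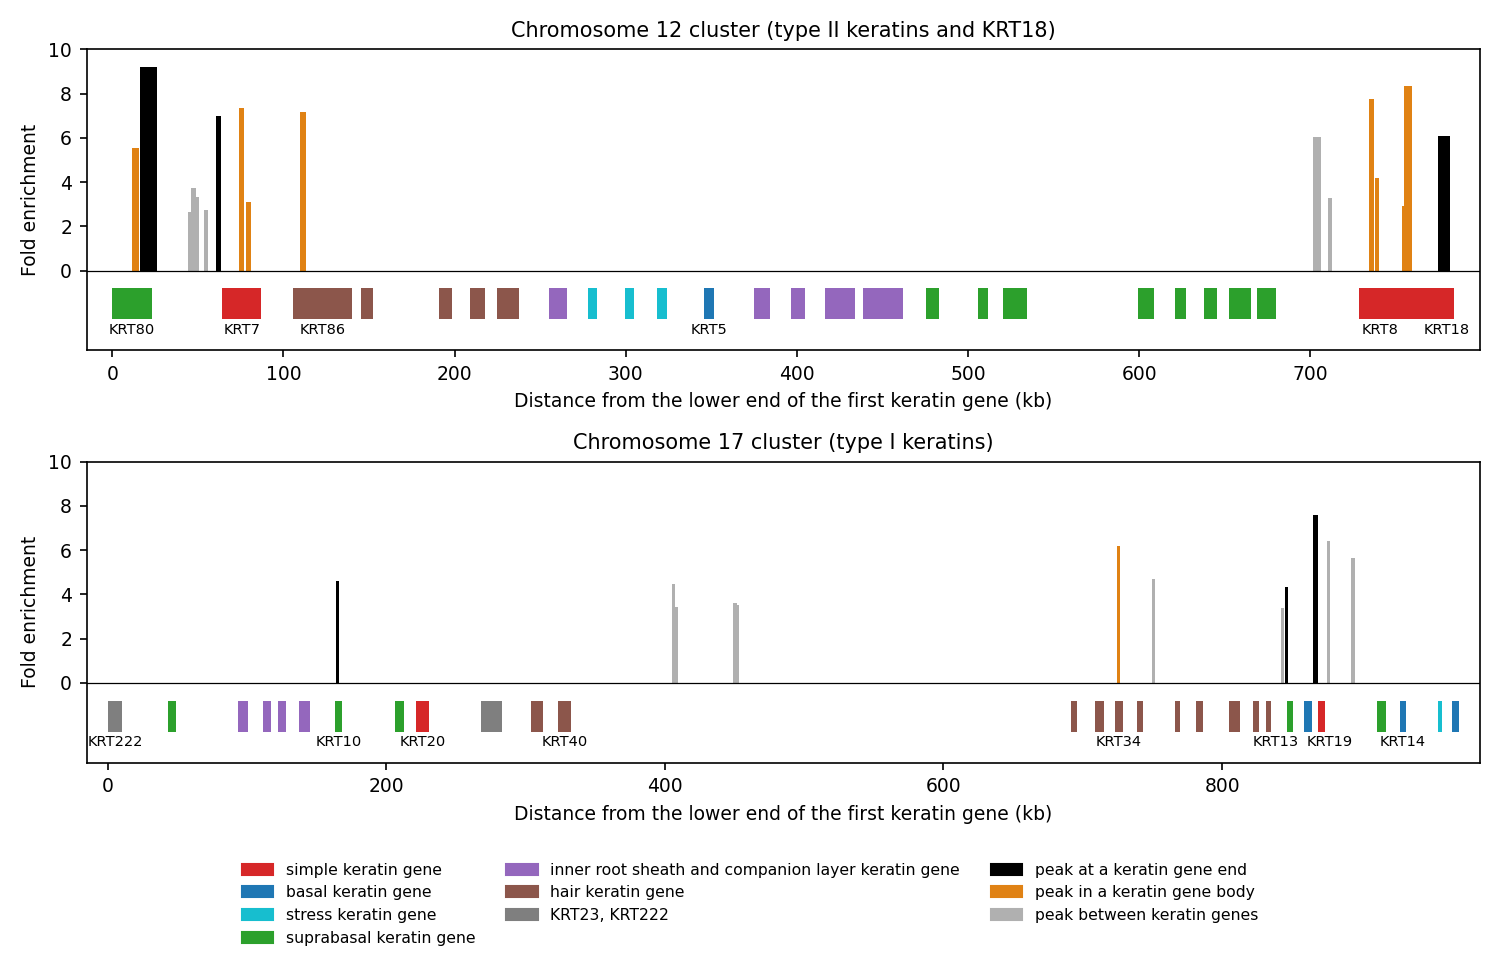
The 2 keratin clusters, with distance in kb on the horizontal axis and fold enrichment of each listed peak on the vertical axis. Boxes are keratin genes coloured by class and bars are peaks, drawn at least 2.5 kb wide. On chromosome 12 all 17 peaks lie towards the outer ends, around KRT80, KRT7 and KRT86 and around KRT8 and KRT18, and 588 kb between them hold none.

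Simple keratins had peaks at 4 of 5 genes, basal keratins at 1 of 4 and hair keratins at 0 of 17. The intervals were 28.4 to 99.5% for the simple, 0.631 to 80.6% for the basal and 0 to 19.5% for the hair keratins, and those of simple and basal keratins overlapped widely. Suprabasal keratins had peaks at 3 of 14 genes (4.66 to 50.8%). None of the 9 keratins of the inner root sheath and companion layer of the hair (0 to 33.6%), the 4 stress keratins (0 to 60.2%), or KRT23 and KRT222 had a peak. The intervals of the hair, sheath and suprabasal keratins thus lay wholly under the 59.1% of all genes, and those of the other classes did not. These intervals treat genes as independent draws. Some neighbouring keratin genes share a peak, however, and a stretch of 588 kb without peaks holds 22 keratin genes. The intervals may therefore be too narrow. No peak of a simple keratin was centred on a gene end. When the midpoint of a peak had to lie in the window it was 0 of 5, and 2 of all 55 keratin genes (KRT10 and KRT13), against 54.8% of all protein-coding genes.

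**Figure D2:**
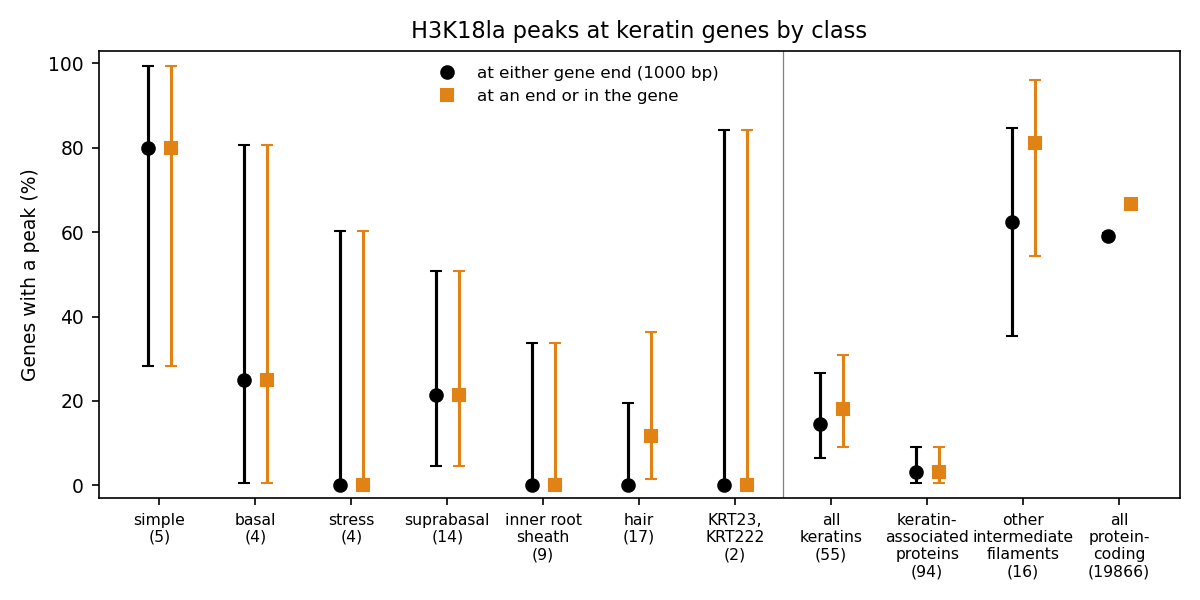
Percent of genes with a listed H3K18la peak at either gene end (circles) and at an end or in the gene (squares) for each keratin class and, right of the line, larger gene sets, with the number of genes in brackets and bars for the exact 95% binomial interval. Simple keratins stand at 80% and hair keratins at 0% by gene ends, and all protein-coding genes at 59.1%.

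KRT8, the type II keratin of simple epithelia (NCBI gene 3856, chromosome 12, 52897191 to 52949860), carried the most peaks of any keratin gene, 1 at an end and 4 in the body. The strongest, 8.34-fold over 4684 bp (52923685 to 52928368, -log10 q 34.4), lay in the body by the gene entry. It covered the KRT8 start of the promoter table, 52926469, reaching 2784 bp below and 1899 bp above it. That start is 23.4 kb from the upper end of the gene entry, so the rule on gene ends does not see this peak, and the printed KRT8 promoter lies inside it. In fold it exceeded 93.2% of all listed peaks and in width 97.1%. At lower coordinates in the gene entry were a peak of 7.73-fold and 2224 bp (52903462 to 52905685), one of 4.16-fold and 1458 bp, and one of 2.94-fold and 549 bp. The last was the weakest in any keratin gene. For KRT8 only the start at 52926469 is listed, and whether any of these peaks covers another start was not examined.

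KRT18, the type I partner of KRT8 (NCBI gene 3875, 52948855 to 52952906), lies beside it, and the entries share 1006 bp. A single peak of 6.09-fold and 6892 bp (52943757 to 52950648, -log10 q 22.8) covered the upper end of KRT8 and the lower end of KRT18. It was wider than 99.1% of all peaks and stood above 78.1% of them in fold. Because the peak counts for both genes, it cannot be assigned to either from the list.

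KRT7, a type II keratin of ducts and glands (NCBI gene 3855, 52233243 to 52255853), had a peak on either side of its lower end. The peak counted at the end, 6.97-fold over 3000 bp (52229315 to 52232314), lay wholly outside the gene and came within 929 bp of it, over the pseudogene TMT1AP1. Inside the gene lay a peak of 7.33-fold and 2650 bp with the highest significance at KRT7 (52242981 to 52245630, -log10 q 30.4) and one of 3.11-fold and 346 bp. Both of these overlapped the antisense gene KRT7-AS. KRT7 was the keratin gene nearest the edge of the 1000 bp window among those counted, followed by KRT15 at 916 bp.

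KRT19, the smallest type I keratin (NCBI gene 3880, chromosome 17, 41523617 to 41528308), had no peak inside the gene but 1 on each side. The lower one, 7.58-fold over 3456 bp (41519806 to 41523261), was 356 bp from KRT19 and 916 bp from KRT15, the basal type I keratin (41513745 to 41518890), and gave both their count. It was the strongest peak of the chromosome 17 cluster. The upper one, 6.42-fold over 1691 bp (41529642 to 41531332), was 1334 bp from KRT19, just outside the window. KRT15 had no other peak, and with a window of 500 bp it was no longer counted, which left 0 of 4 basal keratins. KRT20, the simple keratin of gut and urothelium, had no peak at an end or in the gene.

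The basal pair KRT5 and KRT14 had no peak, nor did KRT17. KRT5 (52514575 to 52520394) lay in the middle of the long stretch without peaks on chromosome 12, with its printed promoter 238060 bp from the nearest listed peak. KRT14 (41582279 to 41586895) and KRT17 (41619442 to 41624575) lay in a stretch of 96.3 kb without peaks on chromosome 17, together with KRT9 of palm and sole skin and the stress keratin KRT16. KRT6A, KRT6B and KRT6C, the type II stress keratins, had none either. KRT6A, KRT6B and KRT6C are near-identical copies of each other, as KRT14, KRT16 and KRT17 are of copies on the same chromosome. How reads matching several copies were placed was not examined.

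**Figure D3:**
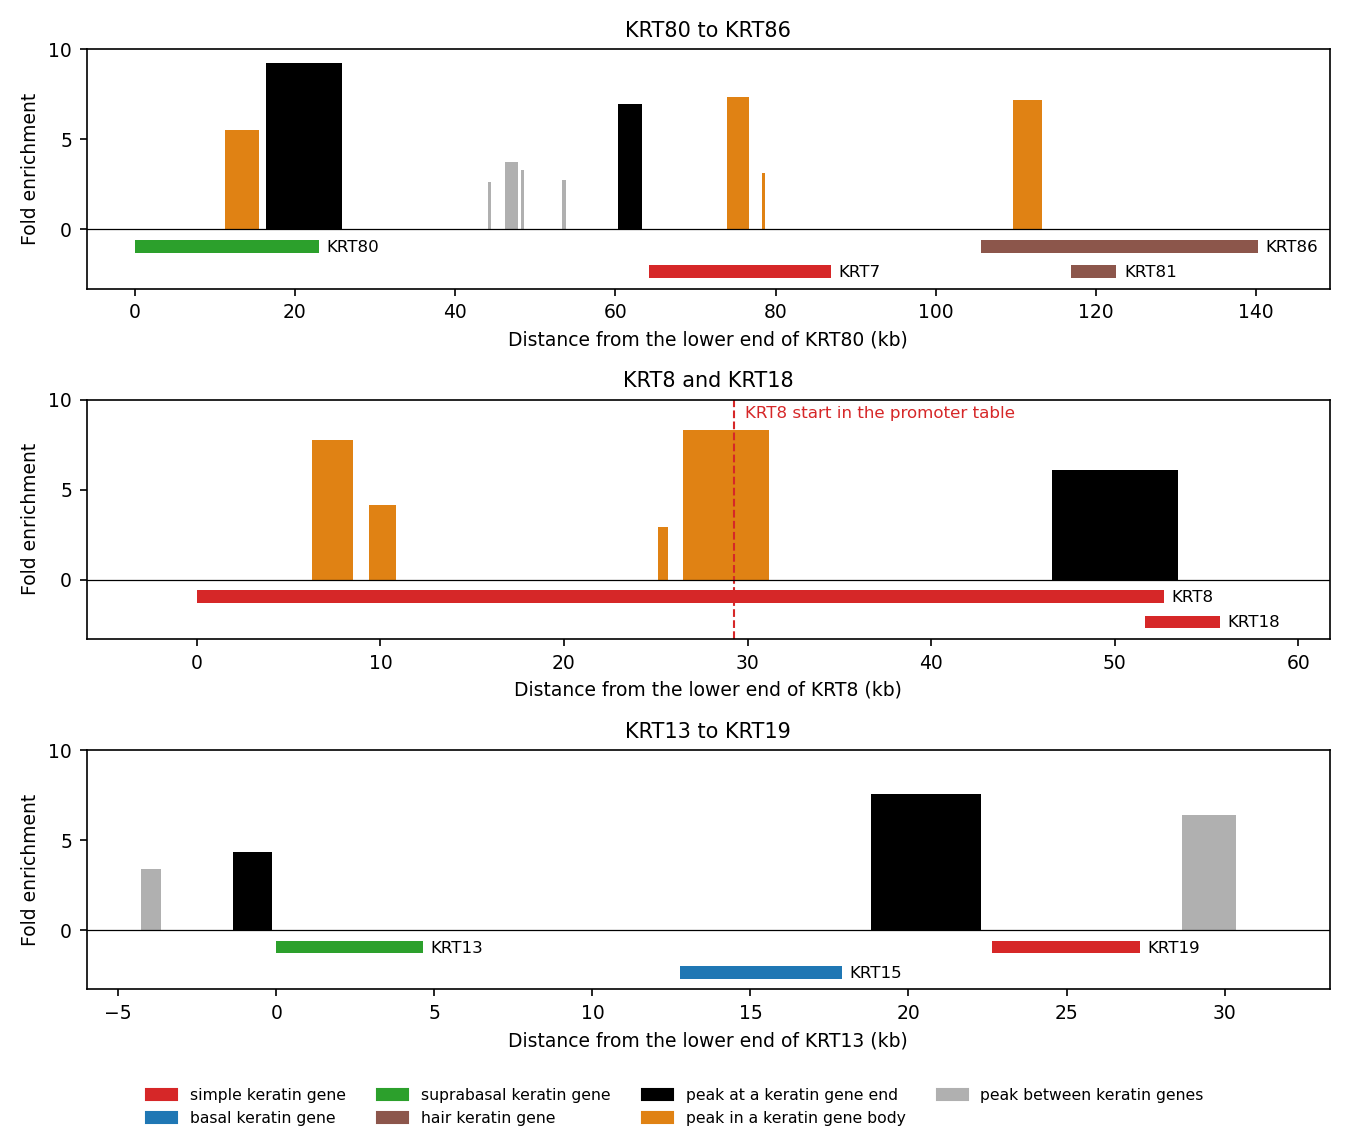
Close views of the keratin genes with peaks, with distance from the lower end of the first gene in kb and fold enrichment of each peak at its true width. The dashed line is the KRT8 start of the promoter table, which the peak of 8.34-fold covers, and the peaks at KRT7, KRT13, KRT15 and KRT19 that count as gene-end peaks lie outside those genes.

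Of the suprabasal keratins, 3 had a peak at an end. KRT80, a type II keratin of differentiating epithelia (NCBI gene 144501, 52168996 to 52192014), had the strongest and widest peak of either cluster, 9.22-fold over 9604 bp (52185320 to 52194923, -log10 q 40.2), across its upper end. A second peak of 5.53-fold and 4224 bp lay inside the gene. The KRT80 peak exceeded 95.6% of all peaks in fold and 99.7% in width. KRT10, the type I keratin of the upper epidermis (40818117 to 40822614), had 4.63-fold over 1043 bp (40818474 to 40819516), inside the gene and 357 bp from its lower end. KRT10 is on the minus strand, so this is its 3′ end, and its promoter lay 3049 bp from the peak, which also overlapped KRT10-AS1, the antisense gene. KRT13, the type I keratin of moist layered epithelia (41500981 to 41505612), had 4.35-fold over 1221 bp (41499611 to 41500831), outside the gene and 150 bp from it. Their type II partners, KRT1 for KRT10 and KRT4 for KRT13, had none, nor had the other suprabasal keratins KRT2, KRT3, KRT9, KRT12, KRT24, KRT76, KRT77, KRT78 and KRT79.

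Of the 17 hair shaft keratins, KRT86 and KRT34 had a peak in the gene and none at an end. The KRT86 peak, 7.18-fold over 3652 bp (52278634 to 52282285), lay 3989 bp above the lower end of its entry (52274645 to 52309163) and overlapped the antisense gene KRT86-AS2. KRT81, another type II hair keratin, is nested in the KRT86 entry and had no peak of its own. In KRT34, a type I hair keratin (41377669 to 41383816), a peak of 6.19-fold and 2614 bp (41378918 to 41381531) lay 1249 bp from the lower end. It was 775 bp from the KRT34 start of the promoter table, 41382306, and with a window of 3000 bp it made the hair count 1 of 17. The other 15 hair keratins, KRT31 to KRT33B, KRT35 to KRT40 and KRT81 to KRT85, had no peak, nor had any of KRT25 to KRT28 and KRT71 to KRT75, the sheath keratins. KRT33A with KRT33B, and KRT81, KRT83 and KRT86, are also close copies, to which the limit on read placement applies.

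Both clusters together held 29 peaks, of which 6 lay at a keratin gene end, 9 in a keratin gene body and 14 between keratin genes. Median fold was 6.53 at ends, 6.19 in bodies and 3.56 between genes, against 4.36 for all peaks of the list. Peaks between genes were also narrower, with a median of 876 bp against 1250 bp for all peaks. In the chromosome 12 cluster, 4 of the 6 peaks between genes lay between KRT80 and KRT7, at 2.63-fold to 3.75-fold and over the long noncoding gene LINC00592. The other 2 lay between KRT78 and KRT8, and one of them, 6.06-fold over 4701 bp (52870630 to 52875330), was close in fold to the peak at KRT18.

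**Figure D4:**
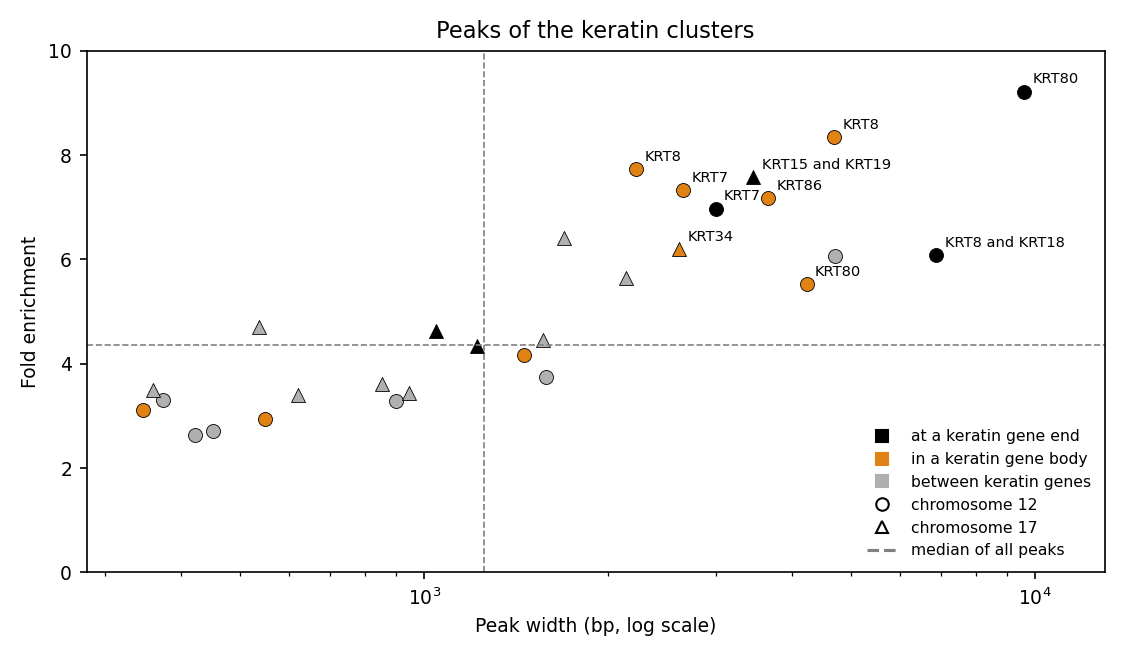
Width (log scale) and fold enrichment of the 29 peaks of the keratin clusters, by place (colour) and chromosome (shape), with dashed lines at the medians of all listed peaks, 1250 bp and 4.36-fold. The stronger peaks at and in KRT80, KRT8, KRT7, KRT18, KRT19, KRT86 and KRT34 fill the upper right, and most peaks between genes the lower left.

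On chromosome 17, 4 of the 8 peaks between keratin genes lay among the keratin-associated protein genes, which encode the matrix of the hair shaft and separate KRT40 from KRT33A. They had 3.45-fold to 4.46-fold, and 3 of them lay at the ends of KRTAP2-3 and KRTAP4-9. Between KRT31 and KRT37 lay a peak of 4.70-fold and 536 bp over the noncoding gene LOC100505782, and between KRT36 and KRT13 one of 3.40-fold and 622 bp. Above KRT19 lay the peak of 6.42-fold given before and one of 5.65-fold and 2141 bp (41547233 to 41549373), 16463 bp from KRT9. Both lay between KRT19 and KRT9, and they were the strongest of the 8.

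Peaks were spread unevenly within the clusters. The chromosome 12 cluster, 784 kb from KRT80 to KRT18, held 17 peaks or 21.7 per Mb, and they covered 6.09% of it. The chromosome 17 cluster, 969.9 kb from KRT222 to KRT17, held 12 peaks or 12.4 per Mb, which covered 1.76%. Genome-wide there were 9.49 peaks per Mb and 1.47% coverage, and the 500 kb flanks held 30 and 58 peaks per Mb on chromosome 12 and 30 and 44 on chromosome 17. Both clusters thus had fewer peaks per Mb than their flanks and more than the genome. These rates were not scaled by gene number. The clusters hold 27 (chromosome 12) and 62 (chromosome 17) protein-coding genes, and their flanks 9 and 19, and 10 and 19. By covered share the chromosome 12 cluster exceeded its lower flank (4.64%) and not its upper one (10.4%), and the chromosome 17 cluster was below both of its flanks (3.72% and 5.83%). With limits chosen after the values were seen, the chromosome 12 cluster fell into a lower part of 113 kb with 10 peaks (23.2% covered), a stretch of 588 kb with none (52282286 to 52870629) and an upper part of 82.3 kb with 7 peaks (26.0% covered). The stretch without peaks holds 22 keratin genes whole, from KRT81 to KRT78, and no other protein-coding gene. On chromosome 17 the longest stretches without peaks that hold keratin genes were 273 kb with KRT33A and KRT33B among 21 coding genes, 240.1 kb from KRT12 to KRT40, and 169.9 kb from KRT222 to KRT28.

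The local background of the peaks differed between the clusters. Solved under a Poisson model from the authors' fold and significance of each peak, in the caller's scaled read units, it had a median of 5.34 over the 17 peaks on chromosome 12 and 2.59 over the 12 on chromosome 17, against 3.83 over all peaks. At equal fold a higher background gives a higher significance, so the peaks of the clusters are not matched in this respect, and its part in their different number and width was not tested.

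The keratin promoters that could be read were poor in CpG, the dinucleotide dense at many promoters. Of the 55 genes, 34 had an entry in RefSeq's promoter table (250 bp before to 50 bp after a start), and the first listed was used. KRT1, KRT13 to KRT19, KRT222, KRT23, KRT6A to KRT6C, KRT7, KRT72, KRT77, KRT78, KRT80, KRT81, KRT83 and KRT86 had none. Among these are 6 of the 8 keratin genes with a peak at an end and 3 of the 5 simple keratins, so the windows describe mostly keratins without a peak, and of the 8 only KRT8 and KRT10. The median number of CpG in the 300 bp was 2 (range 0 to 8) in keratin genes, against 22 in 15809 other protein-coding genes. GC content was 45.7% against 62.7%, and CpG observed over expected was 0.140 against 0.764. At its only listed start KRT8 had 2 CpG and 50.7% GC, within the range of the keratins without a peak. That start lies inside the gene entry, 29.3 kb from its lower end, and may not be the one KRT8 mainly uses. Other KRT8 starts and their CpG number were not examined, so these values describe 1 window and not KRT8 promoters in general.

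Only the KRT8 window had a peak over it, 1 of 34, against 53.9% of all protein-coding genes. Read by CpG number the contrast was smaller. Among windows with 0 to 5 CpG a peak lay over 1 of 28 keratin genes and 5.28% of 3051 other genes. That 1 gene was KRT8 at its only listed start, too few to tell whether keratin genes differ from the rest at this CpG number. With 6 to 10 CpG a peak lay over 0 of 6 keratin genes against 20.03% of other genes. No keratin window had more CpG, where other genes reached 53.7% (11 to 20) and 77.4% (21 or more). These are other genes than those behind the count of 8 of 55, since 6 of the 8 have no window, and the part of CpG number in that count was not tested.

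**Figure D5:**
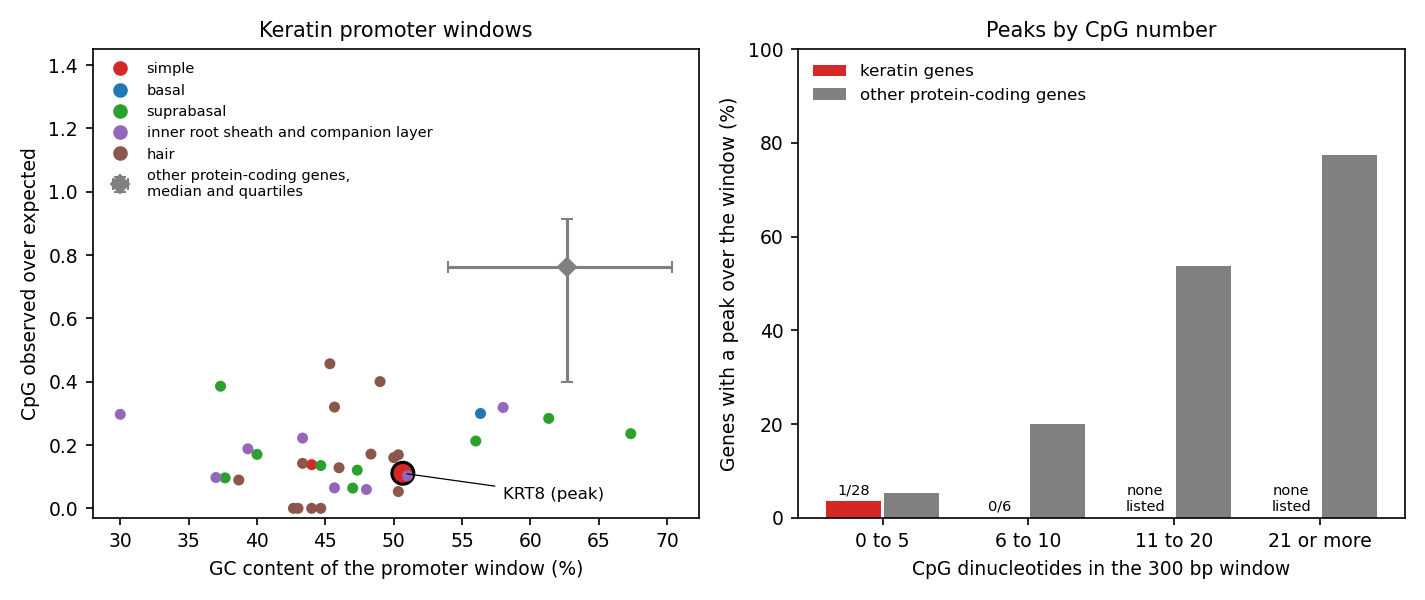
Left, GC content and CpG observed over expected of 34 keratin promoter windows by class, with the median and quartiles of other protein-coding genes (diamond), the large ringed point being KRT8 at its only listed start. Right, percent of genes with a peak over the 300 bp window by its number of CpG, with keratin counts above the bars, which at 0 to 5 CpG are 1 of 28 for keratin genes beside 5.28% for other genes.

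Short motifs were searched in the same windows. TATAAA with its first base 40 to 20 bases before the start on the gene's strand, the place of the TATA box, was found in 15 of 34 keratin genes (44.1%) and 3.55% of other genes. In the printed promoters it begins 29 bases before the start of KRT10 and of KRT31, and KRT8 and KRT5 lack these letters. AANCCAAA, a motif described in keratin promoters, was found on either strand in 8 of 34 windows (23.5%) against 3.90%, among them KRT10, where it begins 109 bases before the start. GGGCGG, the core of the GC box bound by SP1, occurred on either strand in 17.6% of keratin against 58.6% of other windows. TGANTCA, the AP-1 site, occurred in 0 of 34 against 5.76%. These are matches of letters, not shown to be binding sites. Keratin windows had a median of 2 CpG and those of other genes 22, and the motif shares were not matched for CpG number.

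Genes that work with keratins were described by the same rule, beside the 59.1% of all protein-coding genes. Other intermediate filament genes had a peak at an end in 10 of 16 cases (62.5%), a share close to that of all genes. They were led by the nuclear lamin genes LMNB1 (9.74-fold) and LMNB2 (9.23-fold) and by vimentin, VIM (8.09-fold). None lay at an end of BFSP2, DES and GFAP, but BFSP2 (3.49-fold) and GFAP (8.67-fold) had one in the gene. Desmosome and plakin genes, which anchor keratin filaments to cell junctions, had peaks in 9 of 18 cases (50%), with PKP4 at 16.1-fold in a peak also at CCDC148, PKP3 at 9.29-fold and DSC2 at 7.71-fold. None lay at DSC1, DSC3 and DSG1, and the interval of this list (26.0 to 74.0%) included the share of all genes. Cornified envelope genes, which build the outermost skin layer, had 1 of 15 (6.67%), CDSN with 6.91-fold in a peak also at C6orf15 and PSORS1C1, and none at FLG, FLG2 and HRNR. Regulators of keratin genes had 8 of 23 (34.8%), led by SP3 (15.3-fold), FOSL1 (8.24-fold) and JUN (6.89-fold), of which FOSL1 and JUN encode AP-1 subunits. The regulators CDX1, CDX2 and DLX3 had none at an end. Keratin-associated protein genes had 3 of 94 (3.19%), KRTAP2-3, KRTAP21-3 and KRTAP4-9, of which the highest was 4.46-fold, and none at an end of KRTAP1-1, KRTAP1-3 and KRTAP1-4.

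The cell line's labels could be checked only through peaks, which are no measure of expression. Mesenchymal genes (VIM, also counted above, ZEB1, AXL, CDH2 and FN1) had a peak at an end in 5 of 5 cases, and epithelial genes in 2 of 6, CLDN7 (3.52-fold) and CLDN4 (2.91-fold, in a peak also at METTL27), beside 59.1% of all protein-coding genes. CDH1, EPCAM, ESRP1 and GRHL2 had none at an end. Lung genes had 2 of 3, NKX2-1 (3.90-fold) and SFTPC (10.2-fold, in a peak also at BMP1), and none at SFTPB. Squamous genes had 1 of 4, SOX2 (4.46-fold), and none at an end of TP63, PKP1 and DSG3. The intervals of the mesenchymal (47.8 to 100%), epithelial, lung and squamous lists all included the share of all genes, so these counts do not identify the cells.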

How the data were processed

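H1299 chromatin was profiled by ChIP-seq with an anti-H3K18la antibody (1 library), with 1 input library not analysed here. Per the submitters' processing notes, bcl2fastq 2.17, cutadapt 1.18, Trimmomatic 0.38, Bowtie2 2.3.4.1, Picard, MACS2 (2.1.2 and 2.1.0 are both listed) and ChIPseeker were used on hg38, and settings and the control of the peak calls are not given in the sources used here. The deposited broad peak list holds 28695 peaks. Its deposited fold enrichment is a ratio per peak, and its deposited -log10 p and -log10 q are likewise per peak. For 99.98% of peaks the deposited score is -log10 q times 10, cut to a whole number. Depth is unknown.

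Peaks were compared with RefSeq genes of GRCh38.p14 (831 of 59792 entries, read from the table's order as lying on other sequences, were left out), with Python 3.11.15, pandas 2.3.3 and scipy 1.17.1. The table gives no exons, so exonic and intronic positions were not assigned. Strand was known for the 34 keratin genes with a promoter entry. The local background was solved from fold and -log10 p under a Poisson model. Overlap counting and the solver were tested on simulated data. Members, classes and lists were chosen with earlier results of these data known. Text names every keratin gene and every peak between keratin genes by place, and of each of the 5 related gene lists up to 3 genes of highest fold and the first 3 without an end peak by alphabet. Marker lists are named whole. Keratin genes just inside and outside the window are named too. Alternatives covered window, overlap, significance, fold, strand and class membership. Printed sequences are RefSeq's.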

Additional observations from a re-analysis of the deposited data

How the results depend on the processing

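The keratin share stayed below that of all protein-coding genes under every window, overlap and threshold for which both were computed. The count was 3 of 55 when a peak had to cover the gene end itself (47.9% of all protein-coding genes). By midpoint it was 2 of 55 (54.8% of all). It was 6 of 55 with a window of 500 bp (57.7%) and 9 of 55 with 3000 bp (62.4%). At a -log10 q of at least 5 it was 8 of 55 (52.4%), and at the median fold or more 7 of 55 (44.98%). With the 5′ end alone it was 1 of 34 genes of listed strand, a rule for which no share of all genes was computed. Within 1000 bp of a listed start, an alternative added after seeing the data, it was 2 of 34 (62.1% of all). Simple keratins had 2 of 5 at the end itself, 0 of 5 by midpoint, and 1 of 2 by the 5′ end or listed start. Basal keratins had 0 of 4 with 500 bp, at the end itself and by midpoint, and 0 of 1 by the 5′ end or listed start. Hair keratins had 1 of 17 with 3000 bp and 1 of 14 by listed start, and 0 otherwise. By midpoint at the ends of the gene entries simple and hair keratins were thus both at 0. This rule does not see the peak over the listed KRT8 start. With KRT23 and KRT80 added, simple keratins had 5 of 7. Basal keratins had 1 of 3 with KRT17 counted among the stress keratins, and hair keratins 0 of 26 with the sheath keratins added. Peaks between genes were 23 with limits widened by 50000 bp, and 5 at a -log10 q of at least 5 and 5 at the median fold or more. Peaks per Mb of both clusters were 16.5, or 10.3 at a -log10 q of at least 5 (genome 6) and 9.12 at the median fold or more (genome 4.74). The fewer peaks under stricter thresholds follow from their construction and the cause of the other shifts was not tested. No paired analysis was possible because each group holds 1 library, which also leaves no replicate to omit.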

Other observations

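Stretches between neighbouring peaks were ranked over the whole list, beside the stretch without peaks in the chromosome 12 keratin cluster. Of 28672 such stretches in the list, with a median of 27.4 kb, 790 (2.76%) were at least as long as its 588 kb. By the number of protein-coding genes held whole, 14 stretches had 22 or more, the keratin stretch included. Some others in that set hold genes of skin and hair, and further ones hold other gene families, such as olfactory receptors or the families of DEFB4B, PRAMEF1 and UGT2B7. A stretch of 1457 kb on chromosome 1 held 52 coding genes, beginning with TCHHL1, TCHH, RPTN, HRNR, FLG and FLG2, genes of the cornified envelope and hair follicle. On chromosome 21 a stretch of 1060 kb held 28, among them KRTAP24-1, KRTAP13-1 and KRTAP15-1. The longest by gene number, 65 genes on chromosome 11, began with olfactory receptor genes such as OR4B1. These were named after their values were seen, and how reads that match close copies were placed was not examined.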
